A study of Mus musculus with 4 samples.

Results

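The surface-protein genes followed here were Ly6c1, Ly6c2, Ly6a, S1pr1, S1pr4, Cd44, Cd69, Spn and Il7r, which are 9 of the 55401 genes in the deposited tables. They were taken by gene symbol. They had been chosen by their levels and ratios in these same libraries, so all values below are a description and carry no test. Lungs of C57BL/6J mice gave the CD8+ T cells, gated on CD3 and CD8, whose polyA RNA was reverse-transcribed with a SMART-Seq kit. The groups were IPF-LC mice given a CD4-depleting antibody, IPF-LC mice given isotype antibody, LC mice given the CD4-depleting antibody and LC mice given isotype antibody. The labels spell out neither IPF-LC nor LC, and give no age, antibody dose or number of mice. Each of the 4 groups had 1 library, so no difference could be set against the spread between animals.

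Ly6C and Ly6A (Sca-1) are small proteins held in the outer membrane by a GPI anchor. Ly6C marks antigen-experienced CD8+ T cells and inflammatory monocytes, and interferons raise both proteins. S1PR1 is the sphingosine-1-phosphate receptor that lets T cells leave tissues and lymph nodes, and CD69 binds it and takes it off the surface. CD44 binds hyaluronan and osteopontin and is high on memory cells, CD43 (Spn) is a large sialylated mucin of leukocytes, and the IL-7 receptor alpha chain (Il7r) carries the survival signal of naive and memory T cells.

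Ly6c1 and Ly6c2 are neighbouring paralogs on mouse chromosome 15 whose reads can be confused, so their sequences are shown first. Their coding sequences, 393 bases each in GENCODE M21, were identical at 384 positions (97.7%). Ly6a matched Ly6c1 at 81.8% and Ly6c2 at 81.6% of alignment columns, gaps included. Of all 100-base windows in the annotated protein-coding transcripts, untranslated ends included, 14.9% of those of Ly6c2 and 6.49% of those of Ly6c1 also occurred in the other gene. The stretch below spans coding bases 6 to 65, the 60 bases with the most differences, and capitals mark the 6 bases that differ.
Ly6c1 coding: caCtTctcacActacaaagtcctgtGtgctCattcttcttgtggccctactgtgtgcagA
Ly6c2 coding: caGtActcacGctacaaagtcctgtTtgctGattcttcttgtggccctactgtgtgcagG

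The sequences in front of the genes aligned only with gaps. The 250 bases before the most upstream RefSeq start (GRCm38.p6, minus strand) lie at chr15:75048838-75049087 for Ly6c1 and chr15:75111972-75112221 for Ly6c2. Of 284 alignment columns, gaps included, 164 (57.7%) were identical. The windows end at annotated starts that fall at different places of the shared sequence, and part of the gaps comes from this offset. The figure is therefore not comparable with the coding identity of the pair, whose alignment had no gaps. Both windows are shown as a description, since the paralogs went the same way after depletion by very different amounts. The part of these sequences in that difference was not tested.
Ly6c1 promoter: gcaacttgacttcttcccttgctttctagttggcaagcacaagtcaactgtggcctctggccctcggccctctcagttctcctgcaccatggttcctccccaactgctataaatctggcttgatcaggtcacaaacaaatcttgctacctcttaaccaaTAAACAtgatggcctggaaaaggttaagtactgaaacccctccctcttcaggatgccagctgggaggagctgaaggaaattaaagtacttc
Ly6c2 promoter: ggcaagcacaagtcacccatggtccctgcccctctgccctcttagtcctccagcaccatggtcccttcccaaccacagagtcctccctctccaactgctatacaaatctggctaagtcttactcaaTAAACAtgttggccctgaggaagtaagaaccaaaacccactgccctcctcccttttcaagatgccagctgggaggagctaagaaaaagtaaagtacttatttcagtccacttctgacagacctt
Capitals mark TAAACA, the core that forkhead factors such as Foxo1 bind, searched on both strands. It occurred once in each window, beginning 91 bases before the Ly6c1 start and 124 bases before the Ly6c2 start, and in 12% of 27026 such windows of all genes. The letters next to it were nearly the same in both windows, which end at different places of the shared sequence. The unlike distances thus do not show differently placed motifs. Neither window held TTCNNNGAA, the STAT element of interferon-gamma, which 7.14% of all windows held. Nor did they hold GAAA followed after any 2 bases by a second GAAA, the core of the interferon-stimulated element, which 3.05% held. The motifs were chosen after the letters had been seen. Of the 9 genes, 6 had a promoter entry, and among these Il7r had 1 match to TTCNNNGAA and no further match was found.

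Total expected counts lay between 14946569 and 16217672 per library, and 8432 genes had a mean of at least 10 CPM (counts scaled to library size, here after TMM correction). The sorted cells carried CD8 T cell transcripts, with all 13 listed CD8 T cell markers detected in every library and summed levels between 6622 and 7873 CPM. Cd4 had 0 counts in the CD4-depleted IPF-LC library against 73 with isotype, and 16 counts in the CD4-depleted LC library against 12. Transcripts of other cells differed strongly. Summed over 20 markers, macrophages and monocytes stood at 1298 CPM after depletion and 3716 CPM under isotype in IPF-LC, and at 311 CPM after depletion and 5257 CPM under isotype in LC.

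The 9 genes spanned a wide range of abundance per length. In TPM, which allows for gene length, the mean over libraries was 788 for Ly6c2, 743 for S1pr1, 582 for Cd69 and 407 for Il7r. It was 160 for Ly6a, 97.2 for S1pr4, 60 for Cd44, 33.5 for Ly6c1 and 27.2 for Spn. The highest library exceeded the lowest 185-fold in CPM for Ly6c1, 3.61-fold for Ly6a, 2.05-fold for Cd44 and 1.08-fold for Il7r.

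**Figure D1:**
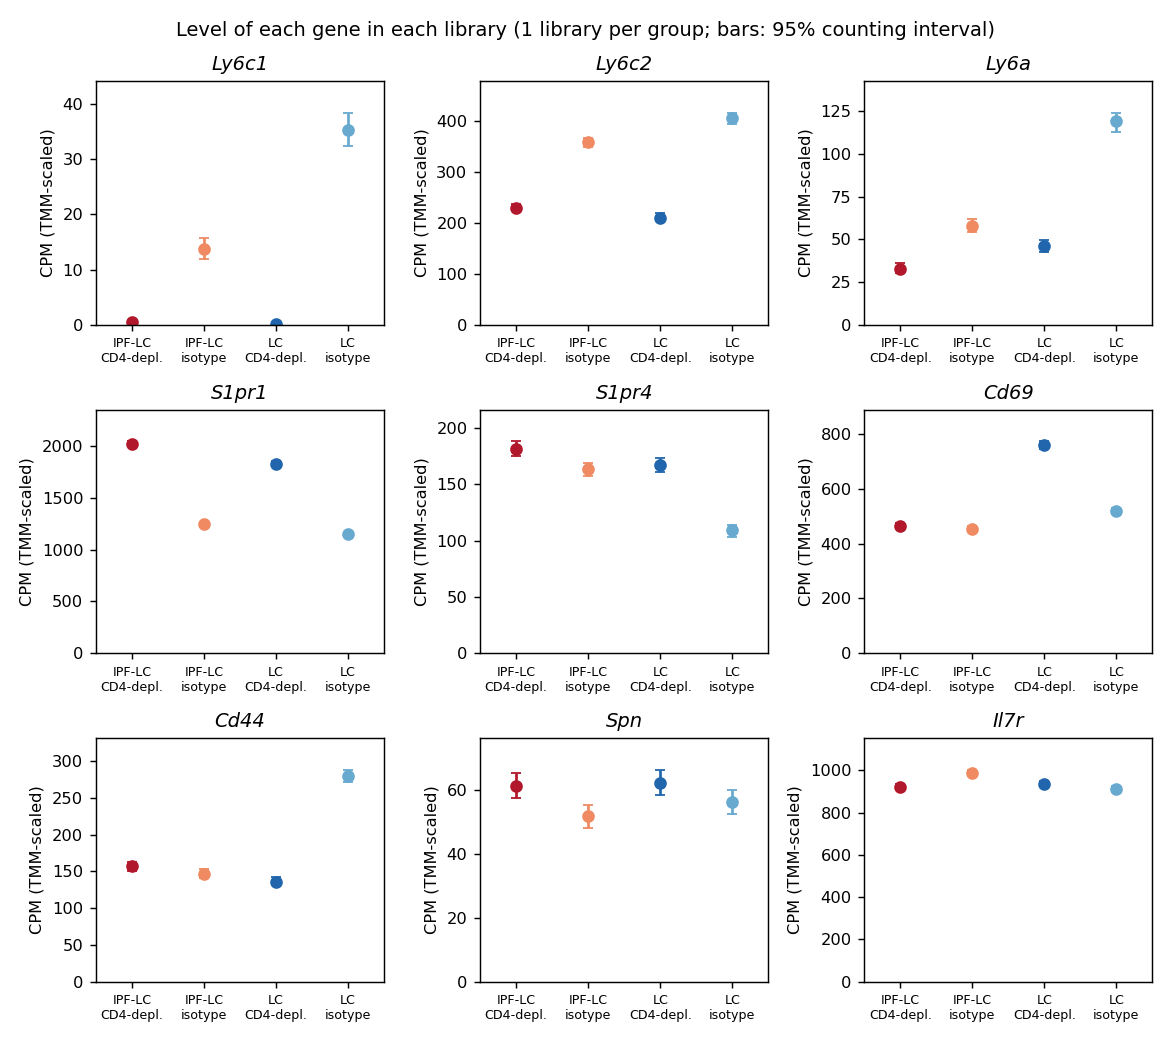
Level of each gene in CPM (vertical axes, linear, starting at 0) in the 4 libraries (horizontal axes), with 95% counting intervals as bars. Ly6c1, Ly6c2 and Ly6a are lower in both CD4-depleted libraries than in the isotype libraries of the same model, S1pr1 is higher, and Il7r lies between 912 and 987 CPM throughout.

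Ly6c1 was nearly absent from the libraries of CD4-depleted mice. It had 7 counts in the CD4-depleted IPF-LC library against 215 with isotype, and 3 counts in the CD4-depleted LC library against 548. Both isotype libraries stood far above both depleted libraries, at 13.7 and 35.3 CPM in IPF-LC and LC isotype libraries and at most 0.451 CPM after depletion. The log2 ratio of CD4-depleted over isotype was -4.84 in IPF-LC (95% counting interval -6.26 to -3.86) and -7.31 in LC (-9.81 to -5.97). These intervals cover counting error only, since reads without molecular identifiers are not independent molecules and mice are not replicated. The gene's mean of 12.4 CPM passed the minimum through its isotype libraries alone, so it had to differ. In bulk RNA, fewer cells that carry a transcript and less of it per cell cannot be told apart.

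Markers of endothelium, a tissue in which Ly6c1 is known to be abundant, were lower after depletion, as Ly6c1 was. The 14 endothelial markers summed to 190 CPM after depletion and 392 CPM under isotype in IPF-LC, and to 171 CPM after depletion and 511 CPM under isotype in LC. Most of the level after depletion came from Pecam1, which T cells also express; without it, as chosen after its level was seen, the sums were 53 after depletion against 259 CPM under isotype in IPF-LC and 42.8 after depletion against 367 CPM under isotype in LC. Kdr, Emcn and Ednrb were at 0 after depletion in IPF-LC, as were Tie1, Ramp2, Emcn, Car4 and Ednrb in LC, while all 14 had counts in both isotype libraries. The 12 fibroblast markers ran alongside, at 95.4 after depletion against 335 CPM under isotype in IPF-LC and 69.6 after depletion against 810 CPM under isotype in LC. Most of these sums came from Fn1 and Gsn. Under isotype, Fn1 gave 170 and Gsn 104 CPM in IPF-LC, and they gave 233 and 456 CPM in LC. Dcn gave 10.9 CPM in the IPF-LC and 37.1 CPM in the LC isotype library. Between the isotype libraries, the ratio of IPF-LC over LC was -1.36 for Ly6c1. For the 7 endothelial markers that averaged at least 10 CPM, Pecam1 included, the median of that ratio was -0.11. Their ratios ran from -1.46 for Car4 to -0.05 for Tek. Without Pecam1, the endothelial sum was 259 CPM in the IPF-LC and 367 CPM in the LC isotype library. The part of endothelial cells and fibroblasts in the Ly6c1 difference was not tested. Among 4 libraries, the genes whose pattern lay closest to that of Ly6c1 were Pmp22, Cyp4b1 and Esam, at Euclidean distances of 0.812, 1.16 and 1.47 between centred log2 CPM. Esam encodes an adhesion molecule of endothelial cells.

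Ly6c2, the main Ly6C gene of these cells, was lower after depletion but remained abundant. Its level was 230 CPM after depletion and 359 CPM under isotype in IPF-LC, and 211 CPM after depletion and 406 CPM under isotype in LC. The depleted libraries were thus the lowest ones, and the log2 ratios were -0.64 (-0.70 to -0.58) in IPF-LC and -0.94 (-1.0 to -0.88) in LC, short of 2-fold. Under scaling to the CD3 chains the LC ratio was -1.22, past 2-fold, and it also reached 2-fold in TPM and under library totals. Each of these settings makes it 4 of the 9 genes that were lower by 2-fold or more in LC, in place of 3. Ly6c2 made up nearly all Ly6C counts: Ly6c1 gave 0.195% of the summed counts of the pair in the CD4-depleted IPF-LC library (95% exact binomial interval 0.0786 to 0.402%) and 3.69% with isotype. In LC the share was 0.0905% (0.0187 to 0.264%) after depletion and 8% (7.37 to 8.67%) with isotype. The near-identical paralogs share reads, which the authors' estimation divides between them. With their counts summed, the level was 231 after depletion against 373 CPM under isotype in IPF-LC and 212 after depletion against 442 CPM under isotype in LC, and the ratios were -0.69 (-0.75 to -0.63) and -1.06 (-1.12 to -1.0).

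Ly6a was lower after depletion in both models as well. It stood at 32.9 CPM after depletion and 57.9 CPM under isotype in IPF-LC, and at 46.0 CPM after depletion and 119 CPM under isotype in LC. The isotype LC library was the highest by far. The depletion ratio was -0.82 (-0.98 to -0.66) in IPF-LC and -1.37 (-1.49 to -1.24) in LC. Myo1c, Jcad and Cd24a had the closest patterns, at distances of 0.0753, 0.124 and 0.202. The endothelial and fibroblast sums given above were also lower after depletion in both models. The part of those cells in the Ly6a difference was not tested.

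Other genes of this protein family were mostly silent. Of 30 further Ly6 and uPAR domain genes, 8 to 10 had a count in a library and 3, namely Ly6e, Plaur and Lypd6b, averaged at least 10 CPM. Ly6e, an interferon-inducible family member, stood at 686 after depletion against 938 CPM under isotype in IPF-LC (-0.45) and at 938 after depletion against 943 CPM under isotype in LC (-0.01). Plaur, the urokinase receptor of myeloid cells, stood at 87.5 after depletion against 162 CPM under isotype in IPF-LC (-0.89) and at 64.3 after depletion against 301 CPM under isotype in LC (-2.23). Lypd6b had depletion ratios of -1.14 in IPF-LC and 0.11 in LC, and further pairs of ratios are in this order of the models. The type I interferon response genes, among which Ly6e is listed, had 5 of 29 members lower by 2-fold or more after depletion in IPF-LC and 13 of 29 in LC, with 0 higher by that much in either; of all genes tested, 5.94 and 5.80% were that much lower. Their median ratios were -0.52 and -0.79, against 0.01 and 0.06 over all 8432 genes. Slfn5 had a ratio of -2.32 in IPF-LC and Rsad2 one of -2.27 in LC.

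Both Ly6c2 and Ly6a are also expressed outside the T cell lineage, and the macrophage sums given above were lower after depletion. Of the 20 markers, Ccr2, also a receptor of T cells, was higher, with 60.4 after depletion against 15.5 CPM under isotype in IPF-LC and 102 after depletion against 76.0 CPM under isotype in LC. Marco was at 0 in 3 libraries, and Adgre1, Fcgr1, Siglecf, C1qa and Clec7a were also at 0 in the CD4-depleted LC library. In that library the 19 macrophage markers other than Ccr2 summed to 209 CPM, of which Ctss alone gave 150 CPM. The 10 neutrophil markers summed to 3.60 CPM after depletion and 7.99 CPM under isotype in IPF-LC, and to 3.13 CPM after depletion and 155 CPM under isotype in LC, with Ly6g and Camp at 0 in every library. Plasma cell markers summed to 420 after depletion against 199 CPM under isotype in IPF-LC and to 276 after depletion against 333 CPM under isotype in LC, with Tnfrsf17 and Ighg2b at 0 in every library, and most of the sum was Xbp1. The part of these cells in the Ly6 differences was not tested.

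**Figure D2:**
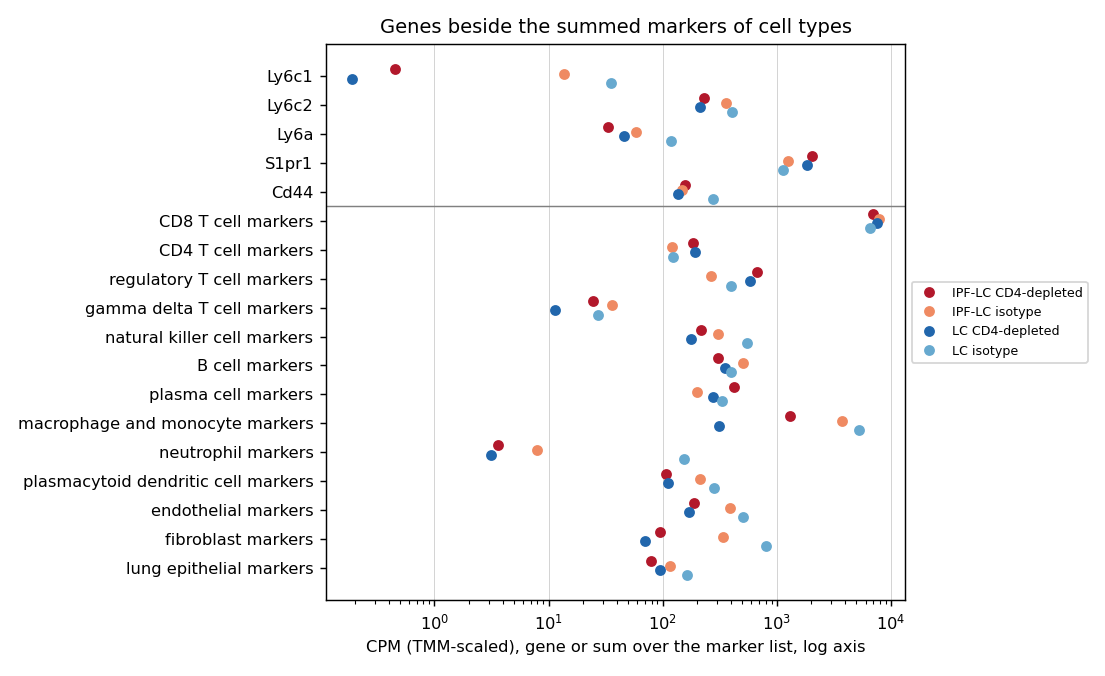
Levels of 5 of the genes and summed levels of 13 cell type marker lists in CPM (horizontal log axis), with 1 point per library. Ly6c1 and the endothelial, fibroblast and macrophage sums lie lower in both CD4-depleted libraries than in the isotype library of the same model, S1pr1 lies higher there, and the CD8 T cell sums stay between 6622 and 7873 CPM.

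S1pr1, the egress receptor, was higher after CD4 depletion by nearly the same amount in both models. It had 2022 CPM after depletion and 1250 CPM under isotype in IPF-LC, and 1829 CPM after depletion and 1146 CPM under isotype in LC. Both depleted libraries exceeded both isotype libraries, and all neighbours in the order of levels were further apart than counting error. The log2 ratio was 0.69 (0.67 to 0.72) in IPF-LC and 0.67 (0.65 to 0.70) in LC, below 2-fold. Sizes at least as large were found for 21.6% of all genes tested in IPF-LC and 16.5% in LC. When libraries were scaled to the CD3 chain genes, the ratios were 0.88 and 0.39. S1pr1 is also abundant in endothelium, whose marker sums are given above. The part of endothelial cells in the S1pr1 level was not tested. Suz12, Zfas1 and Smc5 had the closest patterns, at distances of 0.0483, 0.0794 and 0.0801.

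Cd69 opposes S1PR1 at the surface. Its level was 463 CPM after depletion and 455 CPM under isotype in IPF-LC, which counting error does not separate, and 760 CPM after depletion and 520 CPM under isotype in LC. The ratios were 0.02 (-0.02 to 0.07) and 0.55 (0.51 to 0.59). Under library totals, upper-quartile factors or TPM the IPF-LC ratio was below 0, down to -0.11. Per length, S1pr1 exceeded Cd69 2.02-fold in the CD4-depleted and 1.20-fold in the isotype IPF-LC library, and 1.10-fold in the CD4-depleted LC library, while the quotient was 0.990 in the isotype LC library.

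S1pr4, a sphingosine-1-phosphate receptor of blood cells, was lowest in the isotype LC library. It stood at 181 CPM after depletion and 163 CPM under isotype in IPF-LC, and at 167 CPM after depletion and 109 CPM under isotype in LC. The 3 higher libraries lay close together. The depletion ratio was 0.16 (0.08 to 0.23) in IPF-LC and 0.62 (0.53 to 0.71) in LC. Rad18 had the closest pattern, at a distance of 0.0124, followed by Snx33 and Tmf1.

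Among 19 other genes of sphingosine-1-phosphate handling and trafficking, 12 averaged at least 10 CPM and few passed 2-fold. After depletion in IPF-LC 1 was higher and 1 lower, with a median of 0.01, and in LC 0 were higher and 1 lower, with a median of 0.11. Over all genes, 4.15% were higher and 5.94% lower in IPF-LC, and 2.66% higher and 5.80% lower in LC, so the counts lay near the background. Both medians lay near those of all genes and turned below 0 under some scalings. Klf2, the transcription factor that drives S1pr1, stood at 585 after depletion against 392 CPM under isotype in IPF-LC (0.58) and at 420 after depletion against 212 CPM under isotype in LC (0.98). Gna13, a G protein subunit that carries signals of S1PR2, had ratios of 1.07 and 0.48. Plpp1, a lipid phosphatase, had ratios of -1.36 and -3.92, with 71 after depletion against 184 under isotype in IPF-LC and 24 after depletion against 367 counts under isotype in LC. S1pr5, a receptor of natural killer and effector cells and below the minimum with 17 after depletion against 86 counts under isotype in IPF-LC and 27 after depletion against 172 under isotype in LC, had ratios of -2.30 and -2.66. Natural killer cell markers summed to 218 after depletion against 306 CPM under isotype in IPF-LC and to 176 after depletion against 550 CPM under isotype in LC, with Ncr1 at 0 in both depleted libraries. Of these sums, Klrc1 alone gave 100 CPM after depletion and 138 CPM under isotype in IPF-LC. In LC it gave 123 CPM after depletion and 233 CPM under isotype.

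Cd44 set the isotype LC library apart from the other 3. It had 157 CPM after depletion and 147 CPM under isotype in IPF-LC, and 136 CPM after depletion and 279 CPM under isotype in LC. The depletion ratio was 0.10 (0.02 to 0.18) in IPF-LC and -1.04 (-1.11 to -0.96) in LC, just past 2-fold, with an interval that reaches inside it. IPF-LC over LC had a ratio of -0.93 (-1.0 to -0.86) with isotype antibody and 0.20 (0.12 to 0.29) after depletion. Macrophage markers were also highest in the isotype LC library, at 5257 CPM, while the isotype IPF-LC library had 3716 CPM of them with 147 CPM of Cd44. Neutrophil markers were highest in the isotype LC library too, at 155 CPM. The part of these cells in the Cd44 level was not tested. Plk2, Syngr2 and Tcirg1 had the closest patterns, at distances of 0.151, 0.157 and 0.195.

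Of 15 genes for CD44 ligands, their enzymes and cytoskeletal linkers, 5 averaged at least 10 CPM. Spp1, which encodes the CD44 ligand osteopontin, stood at 643 CPM after depletion and 1272 CPM under isotype in IPF-LC, and at 4.40 CPM after depletion and 157 CPM under isotype in LC. Has1, a hyaluronan synthase, had 0 after depletion against 11 counts under isotype in IPF-LC and 0 after depletion against 615 counts under isotype in LC. The linkers Ezr and Msn, which tie CD44 and CD43 to actin, showed ratios of 0.46 (IPF-LC) and 0.26 (LC) for Ezr and of -0.03 (IPF-LC) and 0.14 (LC) for Msn.

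Spn varied little. It stood at 61.3 CPM after depletion and 51.7 CPM under isotype in IPF-LC, and at 62.2 CPM after depletion and 56.1 CPM under isotype in LC. No pair of neighbours in the order of levels was separated by counting error. The depletion ratios were 0.25 (0.11 to 0.38) and 0.15 (0.02 to 0.28), and the one in LC was -0.13 under scaling to the CD3 chains. Its nearest genes were Kdm3b, Cox5b and Atg5, at distances of 0.0203, 0.0248 and 0.0274. Of 18 genes for O-glycans of CD43 and the P-selectin ligand, 11 averaged at least 10 CPM, with 1 at least 2-fold lower and 0 higher after depletion in each model. That count is near the 5.94 and 5.80% of all genes that were lower, while 4.15 and 2.66% were higher. Gcnt1, which builds the branched glycan of activated CD43, had 7.60 after depletion against 11.8 CPM under isotype in IPF-LC (-0.64) and 27.9 after depletion against 17.8 CPM under isotype in LC (0.65).

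Il7r was the steadiest of the 9 genes. It stood at 921 CPM after depletion and 987 CPM under isotype in IPF-LC, and at 935 CPM after depletion and 912 CPM under isotype in LC. The depletion ratio was -0.10 (-0.13 to -0.07) in IPF-LC and 0.04 (0.00 to 0.07) in LC, and both changed sign under scaling to the CD3 chains, at 0.09 and -0.24. Library totals and TPM also put the LC ratio below 0. U2af2, Cox7b and Serbp1 had the closest patterns, at distances of 0.0179, 0.0231 and 0.0246.

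Some genes downstream of the receptor were higher after depletion. Among the 16 IL-7 signalling genes that averaged 10 CPM or more, 4 in IPF-LC and 0 in LC were higher by 2-fold or more, and 0 were lower. Of all genes tested, 4.15% in IPF-LC and 2.66% in LC were higher by that much, and 5.94% and 5.80% lower. The medians were 0.54 and 0.24, and the one in LC turned below 0 under scaling to the CD3 chains. Cish, a feedback inhibitor induced by STAT5, stood at 96.2 after depletion against 35.2 CPM under isotype in IPF-LC (1.45) and at 53.7 after depletion against 46.9 CPM under isotype in LC (0.20). Stat5a itself had ratios of 1.26 and 0.57, and the survival gene Mcl1 ones of 1.05 and 0.94. These genes also answer to other cytokines. Il7, the ligand, had counts in 1 library alone, with 29 in the one from IPF-LC mice under isotype.

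Counted together, 1 of the 9 genes, Ly6c1, was lower by 2-fold or more after depletion in IPF-LC, against 5.94% of all genes tested, and 0 were higher by that much, against 4.15%. In LC 3 were lower, Ly6c1, Ly6a and Cd44, against 5.80% of all genes, and 0 higher, against 2.66%. The median ratio of the 9 was 0.02 in IPF-LC and 0.04 in LC, close to 0.01 and 0.06 over all genes. All 9 had a mean of at least 10 CPM, Ly6c1 through its isotype libraries. Since the genes were picked with these ratios known, nothing is read from the counts.

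**Figure D3:**
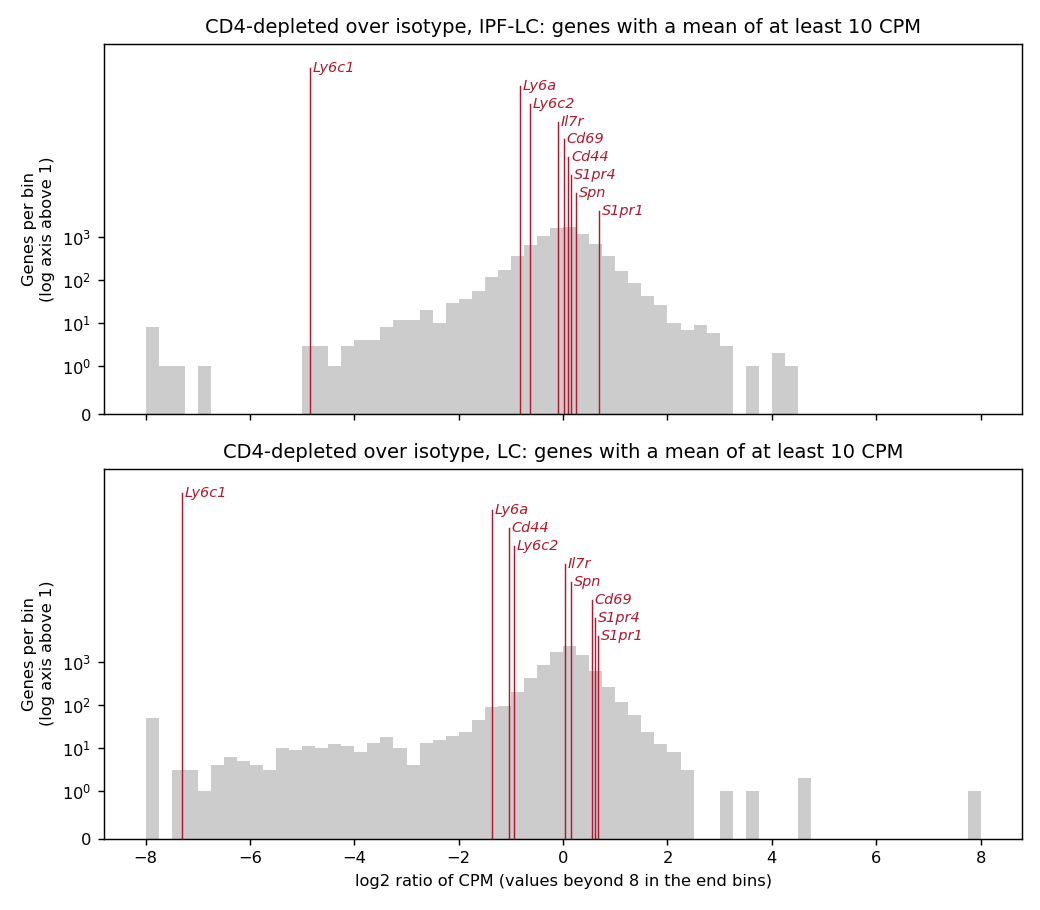
Number of genes per bin of 0.25 in the log2 ratio of CD4-depleted over isotype (vertical axis logarithmic above 1; horizontal axis in log2 units) for the 8432 genes tested, in IPF-LC above and LC below. Red lines mark the 9 genes: Ly6c1 lies in the sparse lower tail at -4.84 and -7.31, and the others lie between -1.37 and 0.69.

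The models were also set against each other within each antibody, using the same 4 libraries as the depletion comparisons. With isotype antibody, Ly6c1 and Ly6a were at least 2-fold lower in IPF-LC than in LC, where 4.07% of all genes were, and 0 of the 9 were 2-fold higher, where 1.92% were. Ly6c1 had 13.7 CPM in the IPF-LC and 35.3 CPM in the LC library (-1.36, -1.60 to -1.13), and Ly6a 57.9 CPM in IPF-LC and 119 CPM in LC (-1.03, -1.15 to -0.92). Cd44 followed at -0.93, and at -1.37 under scaling to the CD3 chains. S1pr4 was higher, at 163 CPM in IPF-LC against 109 CPM in LC (0.58, 0.50 to 0.67). The other 5 lay between -0.19 and 0.13. Scaling to the CD3 chains shifted the median of all genes to -0.41 here, from 0.03, so ratios near 0 change sign with it, as S1pr1 did at -0.31.

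After depletion the largest ratios between the models were those of Ly6c1, Cd69 and Ly6a. Ly6c1 had a ratio of 1.11, but from 7 counts in IPF-LC against 3 in LC, with an interval from -0.90 to 3.82 that includes 0, so counting error covers the difference. It was the only one of the 9 at least 2-fold higher, against 3.34% of all genes, and 0 were 2-fold lower, against 2.56%. Cd69 was lower in IPF-LC, at 463 CPM against 760 CPM in LC (-0.72, -0.76 to -0.67), and so was Ly6a, at 32.9 CPM against 46.0 CPM in LC (-0.48, -0.65 to -0.32). Cd44, S1pr1, S1pr4 and Ly6c2 lay between 0.12 and 0.20, and the ratios of Spn and Il7r were both -0.02 with intervals that include 0.

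**Figure D4:**
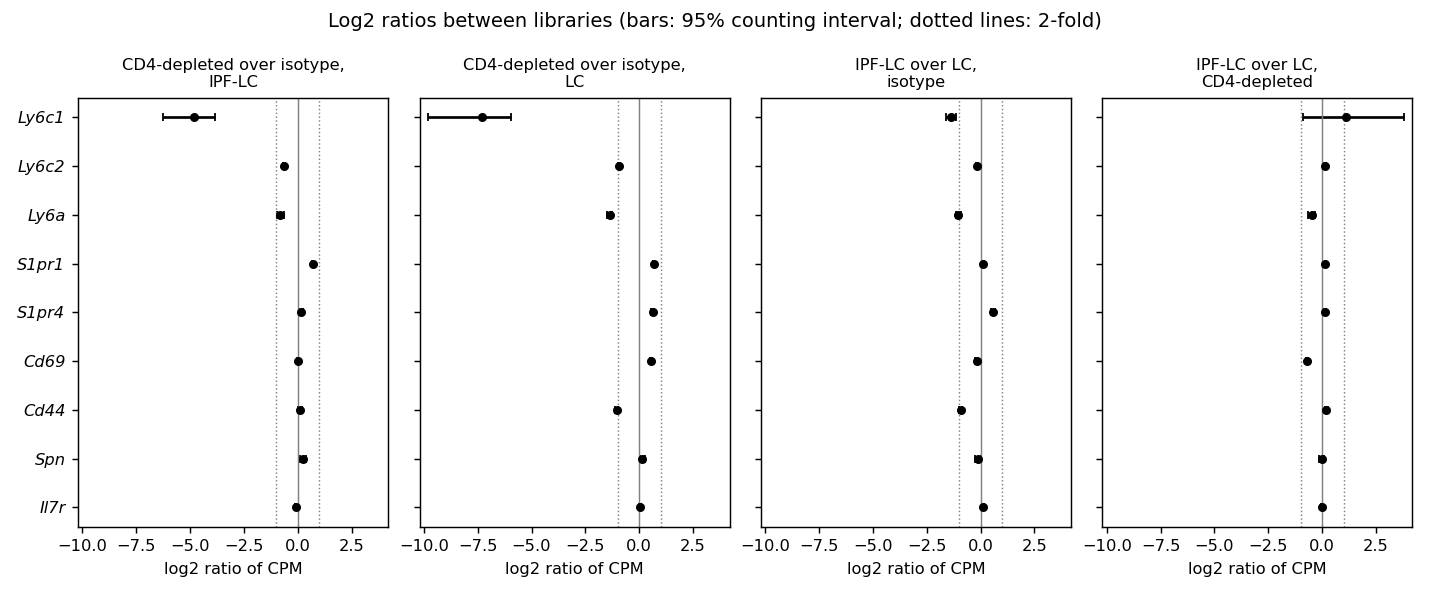
Log2 ratios of the 9 genes (rows) in the 4 comparisons (panels), with 95% counting intervals as bars and dotted lines at 2-fold; the first-named library is on top of each ratio. Ly6c1 has the largest ratios, -4.84 and -7.31 with depletion, and Cd44 lies at 0.10 with depletion in IPF-LC and -1.04 in LC.

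The depletion ratio of IPF-LC minus that of LC was 1.13 for Cd44, with an interval that starts at 1.02, and 2.47 for Ly6c1 (0.51 to 4.44), where counts after depletion were 7 and 3. These 2 of the 9 genes had differences of 1 or more, against 8.05% of all genes tested, and 0 had differences of -1 or less, against 6.33%, which makes 14.4% in either direction. The difference was 0.55 (0.35 to 0.75) for Ly6a, 0.30 (0.22 to 0.39) for Ly6c2, -0.47 (-0.58 to -0.35) for S1pr4 and -0.53 (-0.59 to -0.46) for Cd69. For S1pr1 the difference was 0.02 (-0.02 to 0.06), and for Spn 0.10 (-0.09 to 0.29), both within counting error.

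Other memory genes give these 9 their setting. The counts of list genes that follow stand beside 4.15% of all genes higher and 5.94% lower by 2-fold or more in IPF-LC, 2.66% higher and 5.80% lower in LC, and all-gene medians of 0.01 and 0.06. Of 16 naive and central memory genes, 0 were 2-fold apart after depletion in IPF-LC and 1, Satb1, was 2-fold higher in LC (1.12), and the medians were 0.14 and 0.33. Foxo1, which drives Il7r and Klf2, had ratios of 0.98 and 0.91. Of 16 effector memory genes, 4 were at least 2-fold higher and 0 lower in IPF-LC (median 0.81), and 0 higher and 3 lower in LC (median -0.59). Klrg1 had ratios of 2.27 and -0.64 and Zeb2 ones of 0.57 and -3.52. Zeb2 was highest in the isotype LC library, at 45.8 CPM, as were the macrophage and neutrophil marker sums. The part of those cells in the Zeb2 level was not tested. Of 13 tissue residency genes, 3 were higher and 2 lower in IPF-LC (median 0.41), and 1 higher and 2 lower in LC (median -0.13). Itgae, the CD103 chain held by resident cells, had ratios of -0.31 and 1.19, whereas Itga1 of the same list had -1.41 and -4.15. Also on that list, Ccr8 had ratios of 2.81 and -1.16, and Hspa1a had ratios of -3.07 and -0.67. Regulatory T cell markers summed to 674 CPM after depletion and 264 CPM under isotype in IPF-LC. In LC they summed to 583 CPM after depletion and 396 CPM under isotype. After depletion, Ctla4 and Tnfrsf18 gave 220 and 227 CPM of this in IPF-LC, and 196 and 181 CPM in LC. Foxp3 had 29.4 CPM after depletion against 1.47 CPM under isotype in IPF-LC, and 32.6 CPM against 3.87 CPM in LC. Lrrc32 of the same list had ratios of 3.66 and -1.73. The part of regulatory T cells in the values above was not tested.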

How the data were processed

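Expression was measured by RNA-seq in sorted lung CD8+ T cells, with 1 library in each of 4 groups assigned by the labels alone. Per the submitters' processing notes, the tools were RSEM 1.3.3, STAR 2.7.11a, fastp 0.23.4 and MultiQC 1.25.2, in roles not given, with build GRCm39; the annotation release is not given in the sources used here. The authors deposited expected counts, which are RSEM-type estimates without normalisation, of which 5.49 to 5.89% were not whole. The deposited TPM values allow for effective length; the authors' FPKM columns were not used.

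Expected counts were rounded and scaled with edgeR 4.0.16 TMM factors (0.958 to 1.04) from the 12241 genes that averaged 1 CPM or more, in R 4.3.3. Log2 ratios use a prior count of 0.5. Their 95% intervals are exact conditional binomial. No test was made, since groups had 1 library; the ratios and intervals were checked on simulated data. DESeq2 1.42.0 size factors, library totals, upper-quartile factors, CD3 chain scaling (Cd3d, Cd3e, Cd3g, Cd247), TPM with a pseudocount of 0.1, a prior count of 5, unrounded counts, other minimum levels, other call rules and summed Ly6c counts were alternatives; those on gene lists were added after the data were seen. The members and the 22 gene lists (9 pathways, 13 cell types) were chosen with earlier results of these data known. Named besides the members are up to 2 genes per list and comparison with the largest ratios, and the 3 nearest in pattern among the genes that averaged 10 CPM or more, antigen receptor segments and unnamed gene models aside. Other list genes, such as Klf2, Foxo1 and Stat5a, were named for their roles after their values were seen. Of rows sharing a symbol the highest stood for it. Promoters are from RefSeq (GRCm38.p6) and coding sequences from GENCODE M21, both of an older build than the counts. Figures were drawn with matplotlib 3.10.9. Values of some listed genes are not reported here.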

Additional observations from a re-analysis of the deposited data

Results flagged for a closer look

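The depletion ratios of 2 of the 9 genes had opposite signs in IPF-LC and LC, each with a counting interval that leaves out 0. The interval of Il7r in LC does so barely, as its lower end rounds to 0.00. For Cd44 the ratio in IPF-LC minus that in LC was 1.13, from 0.10 and -1.04. For Il7r it was -0.14, from -0.10 and 0.04, and both of its ratios changed sign when libraries were scaled to the CD3 chains (0.09 and -0.24). Neither difference was tested, as each rests on 4 libraries without replicates.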

How the results depend on the processing

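Of 126 recomputed counts of members, 110 stayed within 1.5 times the reported count. With at least 1.5-fold as the rule, 1 member was higher and 3 lower after depletion in IPF-LC, 2 were higher after depletion in LC, and 1 was lower in IPF-LC than LC after depletion. With a mean of at least 50 CPM, or with Ly6c1 and Ly6c2 summed, the counts were 0 lower after depletion in IPF-LC, 1 lower in IPF-LC than LC with isotype, 0 higher in IPF-LC than LC after depletion, and 1 whose depletion ratios differed by at least 1. These settings leave out Ly6c1 or merge it. With the whole interval beyond 2-fold, 1 was lower with isotype, 0 higher after depletion and 1 differed between models; a prior count of 5 left 0 higher after depletion. Of 288 recomputed member ratios, 225 stayed within their counting interval, 0 called ratios changed direction, and 12 small ones changed sign. Scaling to the CD3 chains moved the median of all genes to 0.19 and -0.22 for depletion in IPF-LC and LC. With it, Ly6c2 had depletion ratios of -0.45 and -1.22. No paired analysis was possible because each group had 1 library. Depth limits Ly6c1 after depletion, at 7 and 3 counts.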

Other observations

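Beyond Ly6e, Plaur and Lypd6b, 8 of the 30 other Ly6 and uPAR domain genes had counts in any library, all with means below 10 CPM, and their orders differed. Gpihbp1, which holds lipoprotein lipase on capillary endothelium, had 8 counts after depletion and 59 under isotype in IPF-LC, and 2 after depletion and 111 under isotype in LC. Ly6i, a Ly6C-related gene, had 0 counts after depletion and 4 under isotype in IPF-LC, and 5 after depletion and 49 under isotype in LC. Ly6k had 53 counts after depletion and 78 under isotype in IPF-LC, and 81 after depletion and 99 under isotype in LC. These 3 were highest in the isotype LC library.

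The other 5 were not. Ly6d had 8 counts after depletion and 54 under isotype in IPF-LC, and 19 after depletion and 27 under isotype in LC. Ly6g5b had 2 counts after depletion and 22 under isotype in IPF-LC, and 54 after depletion and 13 under isotype in LC. Lynx1 had 43 counts in each IPF-LC library, and 2 after depletion and 0 under isotype in LC. Lypd2 had 12 counts under isotype in IPF-LC and Lypd3 had 8 after depletion in IPF-LC, with 0 in the remaining libraries.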
